A study of Mus musculus with 6 samples.

Results

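The genes described here are the collagens, the matrix metalloproteinases (MMPs), the tissue inhibitors of metalloproteinases (TIMPs) and 5 genes tied to hepatic stellate cells and their signals, Acta2, Des, Tgfb1, Lox and Ctgf. They were found by name among the probes of a mouse whole-genome array, and 71 of the 27962 gene names on the array matched. Of these names 40 are collagens, 21 are MMPs and 4 are TIMPs, and 1 further name, Col4a3bp, begins like a collagen but stands for a ceramide transfer protein. The 71 names were held by 125 probes, and each gene is given by its probe with the highest mean signal unless another is named. Of the 26 genes with at least 2 probes detected in every channel, 6 had the same sign of ratio at all 3 months on the brightest 2, so a value stands for its probe. Liver RNA came from male 129/Sv mice, 6 to 8 weeks old at the start, that drank a liquid Lieber-DeCarli diet with 4% ethanol or an isocaloric control diet with maltose dextran. At 1, 2 and 4 months, RNA of 6 mice of each diet was combined into an alcohol pool and a control pool. The pools of a month were hybridized together on 2 two-color arrays with the dyes exchanged, so the design holds 6 arrays, 6 pools and 1 pair of pools for each month. The 2 arrays of a month carried the same RNA, so their spread (SD, n = 2) is technical, and no month could be tested alone. Whether the 6 mice of a pool differed among themselves cannot be seen in these data.

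Collagens are the main fibers of the extracellular matrix. In the liver the fibrillar collagens of types I, III and V are made chiefly by stellate cells, which store vitamin A at rest and turn into contractile, Acta2-positive myofibroblasts during injury. Type IV and type XVIII collagens belong to basement membranes, and type VI forms microfibrils around cells. MMPs degrade collagen and other matrix proteins, and TIMPs block them. TGF-beta 1, the product of Tgfb1, is the best known signal for collagen synthesis, Ctgf (now named Ccn2) is a target and partner of that signal, and Lox crosslinks collagen fibers.

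The promoters of 4 genes are shown because their genes carry the patterns described below: Col27a1 and Col5a3 were lower and Timp3 was higher in the alcohol pool on each of the arrays, and Col1a2 gave ratios of opposite sign in different months. Each sequence runs 5′ to 3′ along the gene, from 250 bases before to 50 bases after the annotated start (RefSeq, GRCm38.p6), with capitals for matches to the CCAAT box (CCAAT) and to the GC box (GGGCGG) on either strand.
Col27a1 (chr4:63215162-63215461, plus strand): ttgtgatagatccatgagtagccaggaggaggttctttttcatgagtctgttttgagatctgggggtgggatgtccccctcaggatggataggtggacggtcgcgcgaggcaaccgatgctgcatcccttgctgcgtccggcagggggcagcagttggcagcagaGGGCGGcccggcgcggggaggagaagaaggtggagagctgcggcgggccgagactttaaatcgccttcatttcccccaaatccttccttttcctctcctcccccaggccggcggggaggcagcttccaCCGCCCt
Col5a3 (chr9:20815018-20815317, minus strand): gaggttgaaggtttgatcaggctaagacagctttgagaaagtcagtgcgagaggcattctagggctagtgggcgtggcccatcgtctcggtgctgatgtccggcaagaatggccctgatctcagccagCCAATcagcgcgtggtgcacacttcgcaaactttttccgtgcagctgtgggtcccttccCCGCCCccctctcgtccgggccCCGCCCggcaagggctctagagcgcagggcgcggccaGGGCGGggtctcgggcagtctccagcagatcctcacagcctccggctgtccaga
Timp3 (chr10:86300162-86300461, plus strand): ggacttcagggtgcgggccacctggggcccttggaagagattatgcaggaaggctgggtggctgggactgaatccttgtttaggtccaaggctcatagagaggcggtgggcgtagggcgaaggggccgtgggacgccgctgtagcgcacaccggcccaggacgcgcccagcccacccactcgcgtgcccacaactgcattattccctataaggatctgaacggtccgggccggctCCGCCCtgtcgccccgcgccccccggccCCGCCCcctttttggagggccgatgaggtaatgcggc
Col1a2 (chr6:4505368-4505667, plus strand): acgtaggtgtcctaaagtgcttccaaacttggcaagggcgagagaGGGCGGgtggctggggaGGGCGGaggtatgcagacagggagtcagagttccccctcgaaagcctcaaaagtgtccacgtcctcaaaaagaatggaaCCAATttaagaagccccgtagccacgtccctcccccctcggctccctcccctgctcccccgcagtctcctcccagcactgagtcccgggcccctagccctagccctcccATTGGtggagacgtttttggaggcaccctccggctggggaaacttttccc
The Col27a1 and Timp3 windows each held 2 GC boxes and no CCAAT box, the Col5a3 window held 3 GC boxes and 1 CCAAT box, and the Col1a2 window held 2 of each. None of these windows held TATAAA. Among the 32851 mouse promoters of this length, 35.7% held GGGCGG, 37.4% held CCAAT and 13.6% held TATAAA. Of the 61 promoters listed for 55 of the genes studied here, 32 held GGGCGG, 18 held CCAAT and 14 held TATAAA. A match describes the letters and not a bound factor.

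Across the whole array, 73.1% to 90.3% of the probes were well above background in a channel, as the scanner software flags it. The 7 hepatocyte markers looked at were above background in every channel, and the 12 stellate cell markers other than Acta2 and Des included 11 such probes. At 1 month 29 of the 59 members detected in every channel had opposite signs on the arrays of the pair, at 2 months 39 and at 4 months 43, that is 49.2%, 66.1% and 72.9%, against 51.8%, 65.5% and 69.9% of the 27900 probes detected everywhere. For the members, the arrays of a pair correlated with an r of 0.16, -0.01 and -0.47 in the order of the months (Pearson, over 59 members, which share arrays and dyes). Over the 27900 probes it was 0.16, -0.30 and -0.32. A separate slide held the earliest month, while the later 2 months shared a slide, and slide and earliest month cannot be told apart.

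Of the 71 genes, 69 had a probe above background in at least 1 channel and entered the tests over 37922 probes. Lox and Col28a1 were not above background in any pool. A further 10 of the 69 were below background in some channel, which left 59 genes detected everywhere, and none of the 71 was saturated. Few of these genes differed between the pools. The median log2 ratio of alcohol over control for the 69 genes was 0.05, 0.06 and 0.00 in the order of the months, beside 0.00, 0.01 and -0.01 for all probes tested. At 2 and 4 months the member medians of the 2 arrays were 0.14 and 0.19 (SD) around these values. All 69 ratios were within 0.5 on the log2 scale at 1 month, 64 were at 2 months and 67 at 4 months, which is 100%, 92.8% and 97.1% of the genes, against 97.9%, 95.4% and 93.8% of all probes.

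**Figure D1:**
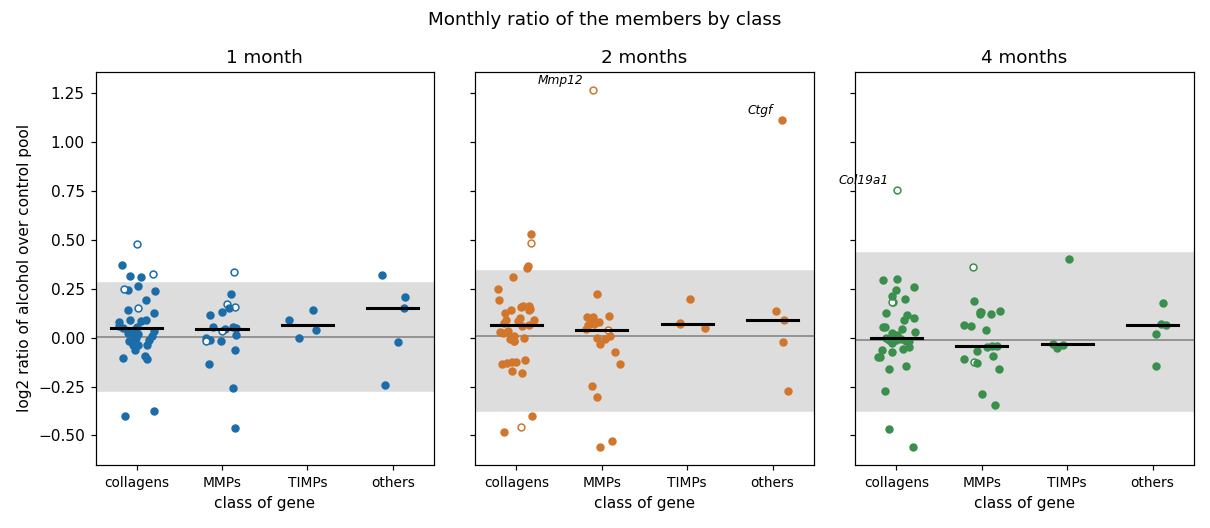
Monthly log2 ratio of alcohol over control pool (vertical axis, mean of 2 arrays) for 69 genes by class, with 1 panel per month. Black bars are class medians, the grey band spans the 5th to 95th percentile of the 37922 probes tested, and open points had a channel not well above background; Mmp12 and Ctgf at 2 months lie above 1.

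Ctgf, the connective tissue growth factor, differed most among the genes detected everywhere. Its log2 ratio was 0.28 and 0.36 on the arrays of 1 month, 0.88 and 1.34 on those of 2 months, and -0.09 and 0.22 on those of 4 months, with the array that carried alcohol in Cy5 given first for each month here and below. The alcohol pool was therefore higher on both arrays at 1 and 2 months, and at 4 months the sign depended on the dye. The mean ratio at 2 months was 1.11 ± 0.33 (SD, n = 2), a fold of 2.16, and the folds at 1 and 4 months were 1.25 and 1.04. The processed signals at 2 months were 1448 and 1418 in the alcohol pool and 789 and 559 in the control pool. Levels were set on the log2 scale over the 75th percentile of each channel, and months 2 and 4, which shared a slide, were read side by side. The control pool was at -1.15 ± 0.09 at 2 months and -0.61 ± 0.49 at 4 months (SD, n = 2). The alcohol pool was at -0.04 ± 0.24 and -0.55 ± 0.27, so the pools were apart at 2 months and close at 4 months. The control pool was 0.54 higher at 4 than at 2 months, which is near its SD at 4 months. Over the 3 months the mean log2 ratio was 0.50 (SE 0.21, adjusted p = 0.632 by limma with Benjamini-Hochberg adjustment).

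A change of at least 2-fold was also read with the error that the scanner software models for each ratio (p under 0.05, a technical filter and not a test of alcohol). Ctgf and Mmp12, both at 2 months, were the genes that passed, 2 of 69 against 0.174% of all probes raised in that month. No gene passed in the other direction at 2 months (0.137% of all probes) or in either direction at 1 month (0.137% raised and 0.087% lowered) and 4 months (0.367% raised and 0.295% lowered). Mmp12, the macrophage elastase, was dim. Its ratio at 2 months was 0.06 on one array and 2.47 on the other, where the alcohol signal was 40.9 and the control signal was 7.37 and not well above background. Neither pool had a level above background for Mmp12 at 1 and 4 months, with ratios of 0.16 and -0.13. The mean of 1.27 ± 1.70 (SD, n = 2) at 2 months thus rested on 1 array, and with another background correction and dye normalization together (normexp, then loess) the count of genes was 1 in place of 2.

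**Figure D2:**
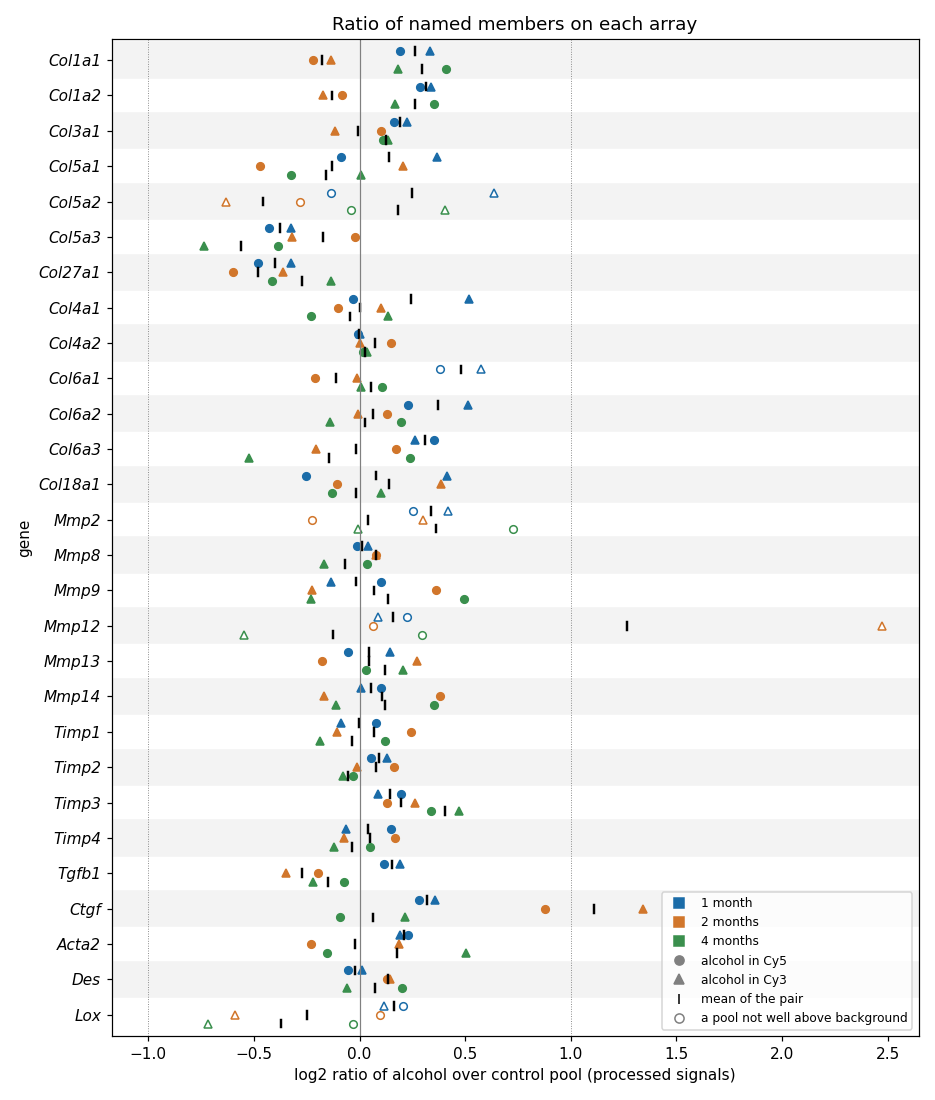
Log2 ratio of alcohol over control pool (horizontal axis) of 28 named genes on each of the 6 arrays; circles carry alcohol in Cy5 and triangles in Cy3, colors are months, black ticks are means of a pair and open symbols mark a pool not well above background. Col27a1 and Col5a3 lie left of 0 and Timp3 right of 0 on all 6 arrays, and Ctgf lies near or above 1 only at 2 months.

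The fibrillar collagens gave ratios of both signs. Col1a1 and Col1a2, which encode the chains of type I collagen, had positive ratios on both arrays at 1 and 4 months and negative ratios on both arrays at 2 months. For Col1a1 the 6 ratios were 0.19, 0.33, -0.22, -0.14, 0.41 and 0.18, which gives 0.26 ± 0.10, -0.18 ± 0.06 and 0.30 ± 0.16 for the 3 months (SD, n = 2). For Col1a2 they were 0.29, 0.34, -0.08, -0.18, 0.35 and 0.17, or 0.31 ± 0.04, -0.13 ± 0.06 and 0.26 ± 0.13. None of these ratios reached 1.5-fold. Opposite signs in different months, each on both arrays, were seen in 9 of the 59 genes detected everywhere and in 15.3% of the 27900 probes, which is the same share. The 2 other Col1a1 probes gave the same signs, at 0.32, -0.13 and 0.28 and, for a dim probe, at 0.57, -0.52 and 0.52. The dim second probe of Col1a2 did not, at -0.57, 0.11 and 0.21. Col3a1, the type III chain, was at 0.19 ± 0.04, -0.01 ± 0.15 and 0.12 ± 0.02, and its other 2 probes, also detected in every channel, were at 0.13, -0.06 and -0.10 and at -0.05, 0.29 and 0.20. In level, the control pool of Col1a1 was at -1.85 ± 0.01 at 2 months and -2.38 ± 0.18 at 4 months, and the alcohol pool was at -2.04 ± 0.05 and -2.09 ± 0.34. Each value stands for 1 pool. Over the months, the limma mean was 0.13 (SE 0.11, adjusted p = 0.795) for Col1a1 and 0.15 (SE 0.11, adjusted p = 0.747) for Col1a2, neither past the threshold.

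Col5a3, a type V chain, and Col27a1 were below 0 in every month. Col5a3 had ratios of -0.43, -0.33, -0.02, -0.32, -0.38 and -0.73, and Col27a1, a fibrillar collagen best known from cartilage, had -0.48, -0.32, -0.60, -0.36, -0.41 and -0.13. Both were lower in the alcohol pool on all 6 arrays. Their monthly means were -0.38 ± 0.07, -0.17 ± 0.21 and -0.56 ± 0.25 for Col5a3 and -0.40 ± 0.11, -0.48 ± 0.17 and -0.27 ± 0.20 for Col27a1. The second probe of each gene gave the same sign in each month, -0.43, -0.15 and -0.26 for Col5a3 and -0.37, -0.35 and -0.23 for Col27a1. The dimmest Col27a1 probe was at -0.14, -0.03 and 0.05. In limma the mean was -0.37 (SE 0.09) for Col5a3 and -0.39 (SE 0.07) for Col27a1, and the adjusted p was 0.616 for each. Col5a1 was at 0.14, -0.13 and -0.16, with a second probe at 0.04, -0.37 and -0.19, and Col5a2, dim and below background in both pools at 1 month, was at 0.25, -0.46 and 0.18. Over the 11 fibrillar collagens the median ratio was 0.13, -0.13 and -0.06.

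**Figure D3:**
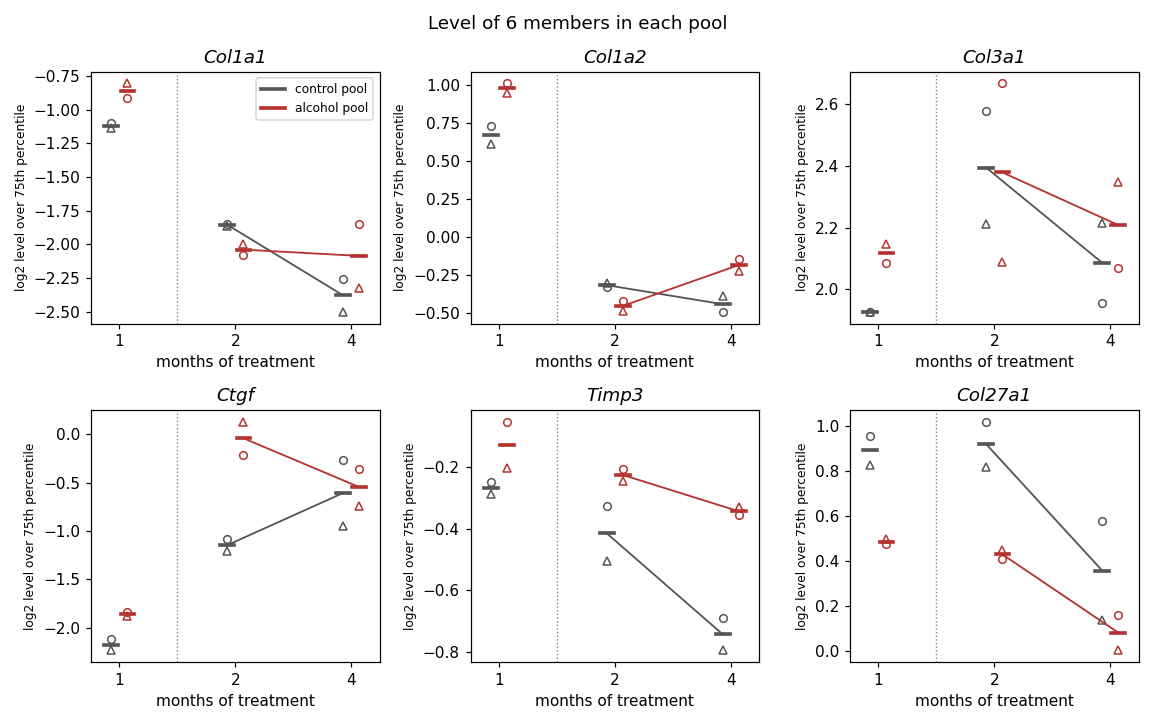
Level of 6 genes in each pool (vertical axis, log2 signal over the 75th percentile of the channel) by month, with circles for the array with alcohol in Cy5, triangles for the other, bars for means of a pair and a dotted line between the slides. The Ctgf pools are apart at 2 months and close at 4 months, and the alcohol pool of Col27a1 lies under the control pool in each month.

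The brightest probes of the type VI chains were higher in the alcohol pool at 1 month. Col6a1 had ratios of 0.38 and 0.58, Col6a2 of 0.23 and 0.51, and Col6a3 of 0.35 and 0.26, so all 3 chains were positive on both arrays. The 2 dim further probes of Col6a3 were at 0.47 and 0.24 in that month, while the dim second probe of Col6a2 was at -0.31. At 2 months their means were -0.11, 0.06 and -0.02, and at 4 months 0.06, 0.03 and -0.14, with signs that changed between the arrays for Col6a2 and Col6a3. Col6a1 was below background in the control pool on 1 of the 2 arrays of 1 month. Endothelial markers were higher in the same alcohol pool, 9 of 9 with a ratio above 0 and a median of 0.24, led by Lyve1 at 0.95 and Cdh5 at 0.59. The summed level of the 9 endothelial markers at 1 month was 9.56 to 9.68 times the 75th percentile in the alcohol pool and 7.85 to 8.40 times in the control pool. The hemoglobin genes Hbb-b1 and Hba-a1, markers of blood, were at 1.97 and 1.51, and the summed level of 5 erythroid genes was 77.2 to 99.1 in the alcohol pool and 22.3 to 35.8 in the control pool. The other erythroid genes were at 0.05 (Alas2), 0.15 (Slc4a1) and -0.03 (Epb4.2), with a list median of 0.15, so the summed level followed the globins. Medians of other marker lists at 1 month were 0.18 for hepatocytes, 0.16 for mesothelium and 0.04 for Kupffer cells. The 12 further stellate cell and myofibroblast markers had a median of -0.04, with 6 above 0. The remaining lists ran from -0.14 (neutrophils) to 0.01 (smooth muscle). The part of any of these cell types in the type VI ratios was not tested. In whole liver more cells of a type and more RNA per cell cannot be told apart.

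The type IV collagens of basement membranes depended on the probe at 1 month. Col4a1 and Col4a2 are the chains found in most basement membranes, with means of 0.24 ± 0.39, 0.00 ± 0.14 and -0.05 ± 0.26 for Col4a1 and 0.00 ± 0.01, 0.07 ± 0.10 and 0.03 ± 0.02 for Col4a2. At 1 month the second probe of Col4a1 had ratios of 0.65 and 0.36, a mean of 0.51, and that of Col4a2 had 0.21 and 0.49, a mean of 0.35, while the means of both were within 0.1 of 0 at 2 and 4 months. Col4a3 was at 0.24, 0.31 and 0.10 with 5 of 6 arrays above 0, and its 2 dim probes were at 0.01, 0.33 and 0.17 and at -0.34, 0.27 and 0.60. On the brightest probes the 6 type IV chains had median ratios of 0.03, 0.05 and 0.01. Col18a1, which carries the endostatin fragment and is abundant in liver, had ratios of -0.26, 0.41, -0.11, 0.39, -0.13 and 0.10, negative with alcohol in Cy5 and positive with alcohol in Cy3. Its monthly means were 0.08, 0.14 and -0.02, and a second probe had the same sign as the brightest on all 6 arrays. Among fibril-associated collagens, the Col12a1 probe and the brightest Col19a1 probe had positive ratios on all 6 arrays but were dim. Col12a1 had a monthly mean of 0.33, 0.53 and 0.24 with neither pool above background at 1 month, and Col19a1 of 0.09, 0.48 and 0.75. The other 2 Col19a1 probes, also dim, did not share this: one was at -0.61, -0.30 and -0.10, and the other, at 0.29, 0.13 and 0.47, changed sign between the arrays of each month. Col14a1 was at 0.04, 0.10 and 0.05 on its brightest probe, while its second probe, detected in every channel, had ratios of 0.71, 0.44, -0.49, -0.42, -0.56 and -0.27 and is given here after its values were seen. On the brightest probe the control pool of Col19a1 was below background on both arrays at 2 months, where the signals put the alcohol pool at least 1.17-fold higher, a limit set on separate channels (loess, then Aquantile normalization).

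For many of these probes the ratio changed sign with the dye. In 20 of the 59 genes detected everywhere, 33.9% against 25.3% of the probes, the sign on the brightest probe followed the dye in every month: 14 were positive whenever alcohol was in Cy5 and negative otherwise, and 6 were the reverse. Col4a4 is an example, at 0.47, -0.40, 0.73, -0.23, 0.61 and -0.62, and Col15a1 is the reverse, at -0.16, 0.14, -0.31, 0.69, -0.47 and 1.07. Of the 20 genes 12 had another probe detected in every channel, which followed the dye the same way in 1 of them (Col18a1), the opposite way in 2 (Col2a1 and Timp1) and not in every month in 9. The second Col15a1 probe was at 0.18, 0.18, 0.08, 0.12, 0.16 and -0.10, and the second Col4a4 probe had monthly means of 0.07, 0.01 and 0.00. The median of the dye-dependent part, which is 0.5 times the difference between the arrays of a pair, was 0.07, 0.19 and 0.18 over the 59 genes, while the median absolute ratio was 0.08, 0.10 and 0.09. Over the 27900 probes the same values were 0.09, 0.17 and 0.20 and 0.08, 0.09 and 0.10. Col4a4 and Col15a1 were chosen as examples after their values were seen.

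**Figure D4:**
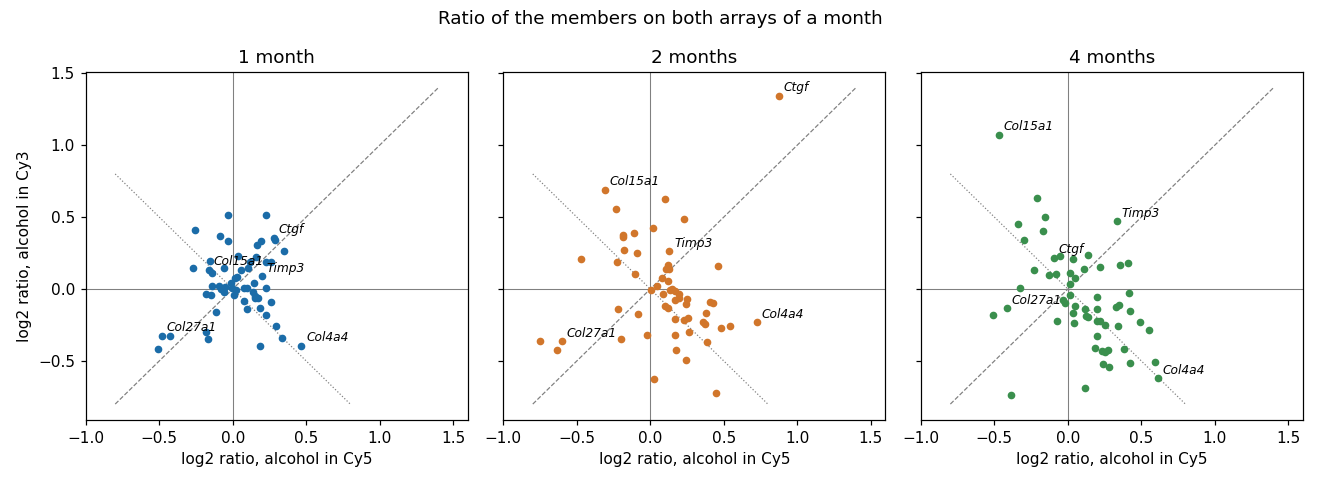
Log2 ratio of 59 genes detected in every channel, on the array with alcohol in Cy5 (horizontal axis) against the array with alcohol in Cy3 (vertical axis), 1 panel per month. Points on the dashed line have the same ratio with both dyes and points on the dotted line change sign with the dye; at 4 months most genes lie in the upper left and lower right, and Timp3 in the upper right.

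Matrix metalloproteinases gave no shared direction. The median ratio of the 21 MMPs was 0.04, 0.04 and -0.04 at 1, 2 and 4 months, with 13, 12 and 10 of them above 0. The gelatinase Mmp9 was at -0.02, 0.07 and 0.13, with a dim second probe at 0.25, 0.09 and 0.14, and the collagenase Mmp8, stored in neutrophils, at 0.01, 0.08 and -0.07. Mmp13, the main interstitial collagenase of rodents, was at 0.04, 0.05 and 0.12, and Mmp14, a membrane-bound activator of Mmp2, at 0.05, 0.11 and 0.12, with a second probe at -0.04, 0.15 and 0.23. Mmp2, the gelatinase of stellate cells, was at 0.34, 0.04 and 0.36, but neither pool was above background at 1 and 2 months, so these are not measured differences. The membrane-type Mmp15 was lower in the alcohol pool on both arrays at 1 month (-0.51 and -0.42) and at 2 months (-0.64 and -0.42) and was at 0.05 and 0.08 at 4 months. It is named here after its values were seen.

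Of the inhibitors, Timp3 was the one with a positive ratio on all 6 arrays. Its ratios were 0.20, 0.09, 0.13, 0.26, 0.34 and 0.47, that is 0.14 ± 0.08, 0.20 ± 0.09 and 0.40 ± 0.09 for the 3 months, the last a fold of 1.32. Timp3 binds to the matrix and also inhibits shedding enzymes of the ADAM family. In level, its control pool was at -0.41 at 2 months and -0.74 at 4 months, and its alcohol pool at -0.22 and -0.34. The limma mean was 0.25 (SE 0.08, adjusted p = 0.621), and its slope on the log2 of the month was 0.13 (SE 0.08, adjusted p = 0.838). Timp1, the inhibitor most used as a sign of fibrosis, had ratios of 0.08, -0.09, 0.24, -0.11, 0.12 and -0.19 on its brightest probe, positive with alcohol in Cy5 and negative with alcohol in Cy3. Its other 2 probes had the reverse dye pattern, at -0.29, 0.02, -0.64, 0.60, -0.70 and 0.68 and at -0.13, 0.26, -0.15, 0.26, -0.28 and 0.08. The monthly means of the 3 probes were 0.00, 0.07 and -0.03, then -0.13, -0.02 and -0.01, and 0.07, 0.05 and -0.10. Timp2 was at 0.09, 0.08 and -0.05 and Timp4 at 0.04, 0.05 and -0.04.

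Stellate cell genes and the TGF-beta ligand showed small ratios. Acta2, the smooth muscle actin of activated stellate cells, had ratios of 0.23, 0.19, -0.23, 0.19, -0.15 and 0.50, so its arrays had the same sign only at 1 month. Its monthly means were 0.21, -0.02 and 0.18, and the 3 other probes above background were at -0.21, 0.03 and 0.03 at 1 month, at -0.02, 0.08 and 0.08 at 2 months and at -0.06, 0.09 and 0.13 at 4 months. Des, which encodes desmin, was at -0.02 ± 0.05, 0.14 ± 0.01 and 0.07 ± 0.18. Tgfb1 had ratios of 0.12, 0.19, -0.20, -0.35, -0.08 and -0.22, positive on both arrays first and negative on both arrays later. Lox was below background in both pools throughout and has no ratio that can be read.

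The effect of alcohol over the 3 months was tested for all 37922 probes, with each month as 1 value. No member passed the adjusted threshold of 0.05, as 0.0% of all probes did, and the lowest adjusted p among the members was 0.616. At an unadjusted p under 0.05, 5 members were raised (Col12a1, Col19a1, Col4a3, Mmp2 and Timp3) against 3.72% of all probes, and 2 were lowered (Col27a1 and Col5a3) against 4.23%. Of 69 members these are 7.25% and 2.90%. Col12a1, Col19a1 and Mmp2 among them were below background in some pools, and Col4a3 and Col12a1 are named after their values were seen, like Col17a1 and Col19a1 below. A ratio above 0 on all 6 arrays was seen for 1 of 59 members, Timp3, and for 1.61% of the 27900 probes detected everywhere, and a ratio below 0 for 2 of 59, Col27a1 and Col5a3, and for 2.68% of these probes. The last 2 shares are near those of all probes. The slope on the log2 of the month gave no adjusted call either (0.0% of all probes, lowest adjusted p among the members 0.687). Without adjustment 1 member, Col19a1, had a rising slope (3.73% of probes) and 1, Col17a1, a falling one (3.39%). Neither slope rests on 3 measured ratios. Col17a1 was at 0.15, -0.40 and -0.47 with neither pool above background at 1 month, and its dim second probe was at -0.09, 0.61 and -0.52, while the control pool of Col19a1 was below background at 2 months.

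**Figure D5:**
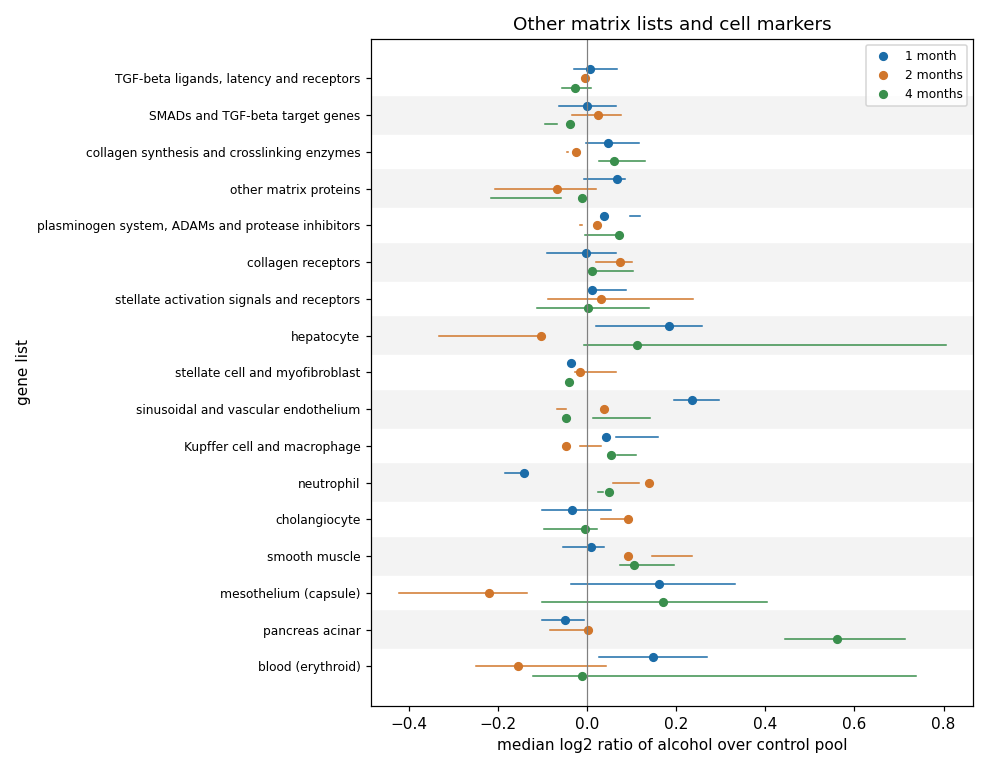
Median log2 ratio of alcohol over control pool (horizontal axis) for 7 lists of matrix and signal genes and 10 lists of cell markers, members left out, by month; points are medians of the monthly means and lines join the medians of the 2 arrays. The endothelial list lies at 0.24 at 1 month, the pancreas list at 0.56 at 4 months, and the mesothelial list at 0.16, -0.22 and 0.17 by month. Other marker lists also pass 0.1 on either side of 0 in some months, such as hepatocyte (0.18) and neutrophil (-0.14) at 1 month. The matrix and signal lists stay within 0.1 of 0.

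Other genes of the same pathways were read from 7 lists without the members. Among the 135 tested genes of these lists, none passed the adjusted threshold in limma, where 0.0% of all probes did. At an unadjusted p under 0.05, 4 were raised and 5 lowered. These are 2.96% and 3.70%, below the 3.72% and 4.23% of all probes, and list medians ran from -0.07 to 0.07 over the months. The collagen synthesis and crosslinking enzymes, 21 genes, had medians of 0.05, -0.02 and 0.06, and Sparc, a collagen-binding protein, was at 0.53, -0.17 and 0.22. The 4 raised genes were Id1, A2m, Fbn1 and Ctsl. Id1, a target of TGF-beta family signals, was higher on all 6 arrays at 0.74, 0.83 and 1.32, with the control pool above background on 2 of 6 arrays, and the protease inhibitor A2m was higher on all 6 at 0.17, 0.28 and 0.89. Fbn1, of microfibrils, was at 0.06, 0.23 and 0.32 with a sign that turned with the dye in every month, and the cathepsin Ctsl was at 0.15, 0.15 and 0.23. The 5 lowered genes were Smad3, Reck, Lum, Fn1 and Fbln2. Smad3, which relays the TGF-beta signal, was lower on all 6 arrays at -0.14, -0.41 and -0.29, as were the MMP inhibitor Reck at -0.24, -0.17 and -0.19 and the dim Lum at -0.43, -0.20 and -0.12. Fibronectin (Fn1) was at -0.26, -0.14 and -0.32, with ratios of -0.79 and 0.27 on the arrays of 1 month and -0.52 and 0.24 on those of 2 months, and Fbln2 was at -0.22, -0.13 and -0.45. The 32 other matrix proteins that hold Fbn1, Lum, Fn1 and Fbln2 had medians of 0.07, -0.07 and -0.01. The 12 further stellate cell and myofibroblast markers had medians of -0.04, -0.02 and -0.04. Among them Reln, at -0.19, -0.50 and -0.67, and Lum were lower on all 6 arrays, while Gfap, at 0.15, 0.19 and 0.16, and Tagln, at 0.19, 0.12 and 0.12, were higher on all 6. Kupffer cell, neutrophil, cholangiocyte, smooth muscle and mesothelial lists held no gene past the adjusted threshold. No probe of the whole array passed it in this fit, so this says nothing particular about these cell types.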

How the data were processed

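The authors scanned 6 two-color arrays and deposited the output of Feature Extraction 9.1.1.1, with the processed signal intensity of each channel after background subtraction and LOWESS dye normalization, and a log10 ratio of Cy5 over Cy3 beside its model error. A second deposited file tabulates log ratios, on the log10 scale by comparison with the scanner values (turned to log2 here), turned by the authors to alcohol over control and with a median of 0 on each array. Here log2 ratios of alcohol over control were taken from the processed signals using the dyes in the labels, after leaving out 1639 control spots per array, averaged over spots of a probe and over the pair of a month. Levels were log2 signals less the 75th percentile of the channel.

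The 3 monthly ratios were tested with limma 3.58.1 in R 4.3.3, against 0 and for a slope over log2 months, over 37922 probes above background in at least 1 channel, with Benjamini-Hochberg adjustment. The months are the only replicates, and their p-values cover the spread between single pairs of pools. The fit was also run on simulated data with changes of 1 or more on the log2 scale. Nearly all ratios of the members were smaller, so that run does not show how well changes of their size are found. The number of arrays limits the precision. Named genes were the 5 stellate cell and signal genes, the TIMPs, the main liver collagens and MMPs, those changed 2-fold, and the 5 highest and lowest with 1 sign throughout. Members and lists were chosen with earlier results of these data known. Of the 71 names, 60 matched a current symbol (GRCm38.p6 table); others kept the name on the array. The alternatives tried were normexp (offset 50) followed by loess, the deposited log ratios, the deposited table, median centring, each array alone, all probes of a name, other filters and thresholds, leaving out each month and an unmoderated fit. Tables and figures were made in Python 3.11.15 (pandas 2.3.3, numpy 2.4.6, matplotlib 3.10.9, scipy 1.17.1). The values of 1 gene of the wider pathway lists are not reported here, although it is counted in its lists.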

Additional observations from a re-analysis of the deposited data

Results flagged for a closer look

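In 4 of the 20 named genes that were detected in every channel and not chosen for a constant sign, both arrays of one month gave a ratio of one sign and both arrays of another month the opposite sign. The same was seen in 15.3% of the 27900 probes detected everywhere. The differences below are log2 ratios of the earlier month minus the later month, the months hold 1 pair of pools each, and the difference between months was not tested. For Col1a1 it was 0.44 from 1 to 2 months and -0.47 from 2 to 4 months, and for Col1a2 0.44 and -0.39. For Tgfb1 it was 0.43 between 1 and 2 months and 0.30 between 1 and 4 months. For Timp2 it was 0.15 between 1 and 4 months, where its monthly ratios were 0.09 and -0.05.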

How the results depend on the processing

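No member was called by limma under any of the 11 alternatives run for the effect or the 9 run for the trend. Few probes of the whole array were called either: with normexp and loess 9 of 37922 for the effect and 50 for the trend, with probes detected everywhere 6 of 27900 for the effect, with the unmoderated fit 1 for the trend, and 0 otherwise, so these counts say nothing particular about the members. With normexp and loess the 135 genes of the wider matrix lists gave 0 calls. The marker lists gave 0 calls for the effect and 1 for the trend, Alas2 of the erythroid list (a falling slope, adjusted p = 0.0233 by limma, against 0.687 in the processed signals). With the slide as a random block the correlation could not be estimated from 3 monthly values, so that fit was not run, and the values without month 1 are those within a slide. Each ratio is taken within a pair of pools, so the test over the months is already paired. A further replicate block could not be added because each month has 1 pair. The mean of Col27a1 over the months ran from -0.44 to -0.25, of Col5a3 from -0.47 to -0.27, of Timp3 from 0.17 to 0.30 and of Ctgf from 0.19 to 0.71, with adjusted p between 0.274 and 0.999. Ctgf was at 0.19 without month 2 and 0.71 without month 4. Mmp12 was at 0.01 without month 2, Col19a1 at 0.13 over all its probes and Mmp2 at 0.12 with normexp and loess.

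The member median at 1 month, 0.05 with arrays that differed by an SD of under 0.01, was 0.04 with normexp and loess (0.0376), the deposited log ratios (0.0408), the deposited table (0.0407), median centring (0.0405) and probes detected everywhere (0.0408), and 0.05 over all probes of a name (0.0528) and without a filter (0.0504). With 1 array of the pair alone it was 0.0777 to 0.0787. Each array alone gave medians of -0.07 to 0.12 at 2 months and -0.13 to 0.14 at 4 months. The 2 genes past 2-fold at 2 months were 1 with normexp and loess and 1 among probes detected everywhere, and 0 to 2 with 1 array alone. At 4 months the count was 1 at a threshold of 1.5-fold in place of 0, and 0 to 2 with 1 array alone. The gene past 1.5-fold was the dim Col19a1, at a fold of 1.69, with its control pool above background on 1 of 2 arrays. No share of all probes is given for these settings, so the counts say nothing particular about the members. Of 81 monthly ratios of named genes, 75 kept their sign with normexp and loess, 74 over all probes of a name and 59 and 62 with 1 array alone. Over all probes of its name Col1a2 was at -0.13 at 1 month, where its dim second probe goes the other way. Dim signals limit Lox, Col28a1, Mmp12, Mmp2, Col5a2, Col12a1 and Col19a1.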

Other observations

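On the array of 4 months with alcohol in Cy5, the Mmp10 probe had signals of 62.1 in the alcohol pool and 57.3 in the control pool, while the other array of the same RNA gave 4423 and 7133. Both arrays of 2 months gave 2173 to 6847. The log2 ratios of Mmp10 on the arrays of 4 months were 0.12 and -0.69. Levels of its pools at 4 months therefore have no single value, and Mmp10 was left out of statements on level.

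In the alcohol pool of 4 months the pancreas acinar list had a median log2 ratio of 0.56, with Cela1 at 0.95, Cpa1 at 0.81 and Pnlip at 0.74, and its summed level was 23.6 to 24.3 times the 75th percentile against 17.8 to 19.1 in the control pool. The list also held 2 genes raised 2-fold in that month, which are not among those named. The median of the 39 collagens tested was 0.00 in the same month, with 20 above 0 and 19 below. Col1a1 (0.30) and Col1a2 (0.26) were positive on both arrays, and Col5a3 (-0.56) and Col27a1 (-0.27) were negative on both. A link between the pancreas list and the collagens was not tested. Emr1, a macrophage marker, was at 1.23, -0.20 and -0.09, while the 8 genes of its list had a median of 0.04 at 1 month, and Alas2, of erythroid heme synthesis, at 0.05, -0.75 and -2.00. The other erythroid genes did not fall with Alas2 at 4 months: Hbb-b1 was at 0.63, Hba-a1 at 0.61, Slc4a1 at -0.01 and the dim Epb4.2 at -0.01, and the list median was -0.01.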
